A study of Mus musculus with 13 samples.

Results

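Loss of Sam68 in the mouse cerebellum at postnatal day 10 (P10) was examined in 5 of the 13 RNA-seq libraries of the series, 3 labelled Sam68 knockout (libraries 10, 11 and 12) and 2 labelled wild type (libraries 5 and 6). The 5 libraries were taken by the genotype and the age in their labels. All are total RNA of cerebella from mice with a C57BL/6 background, and no treatment, Cre line or other allele is named. The other 8 libraries are wild type at P1 (2) and P30 (3) and knockout at P1 (3), and they entered the fit that estimates the spread between libraries.

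The labels do not say how the Sam68 allele was made. Nor do they say that each library is a different mouse, and the p-values below therefore rest on library-to-library spread, which may be technical. Every knockout library carries a number from 10 to 15 and every wild-type library a number from 1 to 9. The labels do not say whether these numbers follow an order of preparation, and such an order and the genotype cannot be told apart.

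Sam68 is the product of Khdrbs1 and belongs to the STAR family of RNA-binding proteins, which bind RNA through a KH domain. It favours short U- and A-rich motifs such as UAAA and UUAA, and by binding near an exon it can change whether the spliceosome includes that exon in the messenger RNA. Its closest relatives are SLM1 (Khdrbs2) and SLM2 (Khdrbs3). In the second postnatal week granule cell precursors of the mouse cerebellum still divide while their daughters migrate, extend axons and form synapses.

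The deposited tables are a pair. One gives the percent inclusion (PSI) of 283765 splicing events, which is the share of informative reads that include an exon, an intron or a splice site. The other holds 22667 genes as cRPKM, a form of RPKM that scales reads by transcript length and library size. The 5 libraries held 9.43 to 13.66 M (1000000) junction reads at simple exon events and 20.58 to 29.72 M reads spliced across listed introns, but only an estimated 0.299 to 2.37 M reads lay behind the cRPKM values, and 6746 to 9054 genes were listed at 0. For this reason expression is given on both scales below, as cRPKM and as spliced reads, meaning the reads joined across the listed introns of a gene per 1000000 such reads in the library (RPM). The second scale was chosen after seeing the data. In bulk tissue, fewer cells of a type and less RNA per cell cannot be told apart.

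Khdrbs1 RNA was strongly reduced in every knockout library. It had 2.06, 1.28 and 3.59 cRPKM in knockout libraries 10, 11 and 12 and 61.2 and 56.2 cRPKM in wild-type libraries 5 and 6. The groups lay far apart, with a difference of −4.23 in mean log2(cRPKM + 1) (SE 0.31, limma adjusted p = 0.000192). By spliced reads the knockouts had 19.3, 14.4 and 14.1 RPM and the wild types 218.9 and 209.2 (log2 difference −3.68, SE 0.15, adjusted p = 3.73e-09). Khdrbs1 was the only gene of 14063 called on the cRPKM scale, 0.00711% of those tested, and it stayed called with any 1 library left out.

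The residual Khdrbs1 reads were spread unevenly over the transcript. The table lists 7 introns, numbered here from the 5′ end of this minus-strand gene at chr4:129386805-129419022 (mm9). Across the third intron (129402967 to 129404798) the knockouts had 0, 0 and 0 spliced reads and the wild types 325 and 393, and across the fourth (129400023 to 129402819) they had 0, 0 and 0 against 678 and 883. A count of 0 allows up to 3 reads in a library. At the sixth intron, in contrast, the knockouts kept 224, 137 and 161 spliced reads against 945 and 1016, and at the first 37, 32 and 40 against 1415 and 1338. The 3 knockout libraries of P1 likewise had 0 reads at the third and the fourth intron. The exon between these introns was thus not joined to either neighbour in any knockout library, while reads from other parts of the gene remained.

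The retained second intron of Khdrbs1 was itself a called splicing event. Its PSI was 2.63, 10.64 and 22.03% in knockout and 0 and 0.09% in wild type (adjusted p = 0.00619). Only 39, 26 and 36 reads supported the knockout values, against 537 and 566 in wild type. The raw reads at its exon-intron junctions numbered 2, 5 and 13 in knockout and 0 and 1 in wild type, so the higher share came with far fewer spliced reads.

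The STAR relative Khdrbs2 was higher in the knockout. Its spliced reads were 48.5, 61.0 and 50.0 RPM in knockout and 23.8 and 26.6 in wild type. All knockouts lay above both wild types, with a log2 difference of 1.04 (SE 0.16, adjusted p = 0.0487). On the cRPKM scale the values were 16.42, 25.21 and 15.16 against 6.46 and 10.01, a difference of similar size that was not called (1.10, SE 0.28, adjusted p = 0.884). At P1, in libraries that share nothing with P10, Khdrbs2 had 93.3, 69.9 and 74.8 spliced RPM in knockout and 40.5 and 35.2 in wild type (1.04, adjusted p = 0.07). The P30 wild types were lowest, at 13.34, 13.04 and 16.12.

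Khdrbs3 had 46.3, 60.1 and 55.2 spliced RPM in knockout and 35.5 and 35.2 in wild type. The groups did not overlap, but the difference was not called (0.59, SE 0.16, adjusted p = 0.23). Qk, which encodes the glial STAR protein Quaking, had 204.5, 197.5 and 349.6 against 243.1 and 314.2, and here the groups overlapped. Sf1, which binds the branch point in early spliceosomes, had 218.7, 218.9 and 239.8 against 245.1 and 224.0. Of 5 STAR genes measured by spliced reads, 1 rose (Khdrbs2), 1 fell (Khdrbs1) and 3 did not pass, and the share called over all 11173 genes was 0.0269%. The other called gene was Amy1, named after its values were seen, an amylase gene whose near-identical relatives make its count uncertain. It had 3.33, 5.49 and 3.4 spliced RPM in knockout and 15.4 and 20.8 in wild type (−1.93, SE 0.27, adjusted p = 0.0255).

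**Figure D1:**
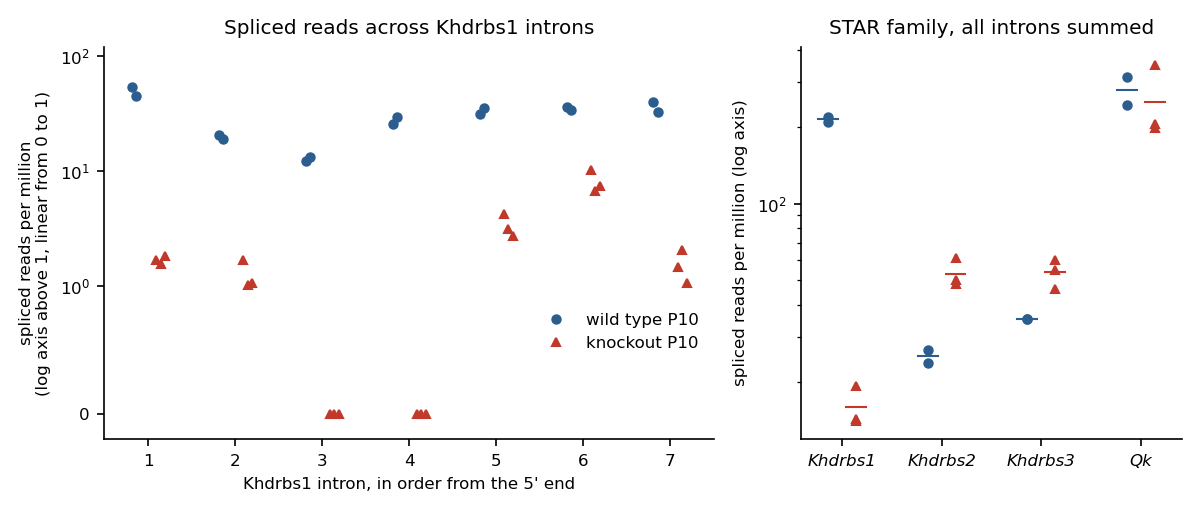
Left, spliced RPM at each of the 7 listed Khdrbs1 introns from the 5′ end, 1 point per P10 library, on an axis that is linear from 0 to 1 and logarithmic above. All 3 knockout libraries sit at 0 at the third and the fourth intron. Right, spliced RPM of 4 STAR genes on a log axis, with a bar for the group mean, where Khdrbs2 lies at 48.5 to 61.0 in knockout and at 23.8 and 26.6 in wild type.

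For splicing at P10, 40661 events were tested. Each had at least 10 reads in at least 2 libraries of each P10 group and a mean PSI of 5 to 95%. An event was called at an adjusted p below 0.05 and a difference of at least 10 points of PSI. This left 13 calls, 0.032% of the events, of which 10 were higher and 3 lower in knockout, and 1709 events reached an unadjusted p under 0.05. Of the 13 calls, 10 were made again without knockout library 10, 6 without library 11 and 4 without library 12. Leaving out wild-type library 6 kept 5 of them, and leaving out wild-type library 5 kept 0. The calls named here fall in a vesicle-fusion regulator, a kinesin, RNA-processing and ribosomal genes, a palmitoyltransferase, a DNA polymerase, a calcineurin regulator and adhesion genes.

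Among the exons named here, the lowest adjusted p belonged to one in Stxbp5l, the gene of tomosyn 2, a syntaxin-binding protein of the presynaptic release machinery. This exon of 171 nt (chr16:37142362-37142532, mm9, minus strand) was included in 100% of reads in all 3 knockout libraries and in 83.47 and 71.24% in wild type, with 47 to 131 reads per library. The knockouts lay above both wild types, and the call (adjusted p = 0.00619) was kept in 3 of the 5 fits that each left out 1 P10 library, not in those without a wild-type library (28.8 points and adjusted p = 0.0878 without library 5). The P1 knockouts had 100, 97.89 and 100% and the P1 wild types 79.31 and 66.67% (adjusted p = 0.0176). Wild type at P30 reached 97.16, 97.22 and 98.04%, close to the knockouts of both earlier ages.

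Kif21a encodes a kinesin motor that limits microtubule growth. Its exon of 108 nt (chr15:90783142-90783249, mm9, minus strand) was included in 90.1, 94.54 and 94.34% in knockout and in 56.17 and 73.16% in wild type, with 345 to 505 reads per library. No library of one group reached the other (adjusted p = 0.0247), and P1 was alike, with 95.45, 94.4 and 94.95% against 77.28 and 65.57% (adjusted p = 0.0346). In wild type at P30 the exon was at 48.01, 51.9 and 50.12%, so here the knockout value lay farther from the P30 value than the P10 wild type did. The call was lost without knockout library 11 or 12 or wild-type library 5 (adjusted p = 0.137, 0.0936 and 0.507), with differences of 27.6, 27.7 and 19.8 points against 28.3 in the full set.

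The called exons that are coding over their whole length, without the uncertain Rpl11 exon described below, and the exons of Epc2 and Sgce, with the largest uncalled rises among exons with at least 20 reads in all 5 P10 libraries and no overlap between the groups, are shown because they are the sequences whose inclusion differed. They come from GENCODE M21 transcripts (GRCm38), matched by gene symbol, exon length and intron length, 5′ to 3′ on the transcribed strand. Capitals mark TAAA and TTAA, the DNA letters of the Sam68 motifs UAAA and UUAA.
Stxbp5l 171 nt exon, higher in knockout: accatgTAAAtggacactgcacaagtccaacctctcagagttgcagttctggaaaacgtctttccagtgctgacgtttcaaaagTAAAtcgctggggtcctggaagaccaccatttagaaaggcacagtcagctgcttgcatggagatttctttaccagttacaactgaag
Kif21a 108 nt exon, higher in knockout: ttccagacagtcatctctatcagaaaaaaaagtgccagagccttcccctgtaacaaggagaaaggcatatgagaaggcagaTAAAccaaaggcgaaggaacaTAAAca
Epc2 192 nt exon, higher, not called: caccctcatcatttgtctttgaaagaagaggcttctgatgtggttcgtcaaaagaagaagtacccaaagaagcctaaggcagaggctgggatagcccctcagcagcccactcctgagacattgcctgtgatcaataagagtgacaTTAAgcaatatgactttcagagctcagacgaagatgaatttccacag
Sgce 27 nt exon, higher, not called: ggaaaagagagacatgcaaaccccaga
Zdhhc18 103 nt exon, lower in knockout: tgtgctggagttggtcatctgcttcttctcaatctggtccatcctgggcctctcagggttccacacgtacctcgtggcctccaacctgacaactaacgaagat
Pole 86 nt exon, lower in knockout: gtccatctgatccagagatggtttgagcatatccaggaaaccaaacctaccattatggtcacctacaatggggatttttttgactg
The Stxbp5l and Kif21a exons each hold 2 TAAA and the Epc2 exon holds 1 TTAA, while the Sgce, Zdhhc18 and Pole exons hold neither within the exon. The flanking introns were not analysed here, and a match of letters is not a binding site.

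Rbm25 encodes a splicing regulator that itself binds RNA. An exon of 64 nt, a length that shifts the reading frame, was included in 9.67, 13.14 and 16.16% of its reads in knockout and in 2.18 and 3.3% in wild type (adjusted p = 0.0129), with 464 to 2107 reads per library. The P1 libraries had 11.6, 10.68 and 9.1% against 2.88 and 3.8%, a difference of 7.12 points. The call was kept in 2 of the 5 fits with a library left out, and ended without knockout library 11 or 12 or wild-type library 5, where the difference was 10.2, 8.67 and 9.69 points. The exon stayed minor in each library, and Rbm25 as a whole had overlapping spliced reads in the groups, with 526.7, 491.7 and 574.2 RPM against 517.5 and 600.4.

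Ttc17, a gene of a tetratricopeptide repeat protein, gained an exon of 549 nt in the knockout. It was at 7.53, 12.85 and 18.28% against 1.37 and 1.9% (adjusted p = 0.0398), and at P1 at 16.31, 20.91 and 18% against 5.35 and 7.55%. Both ages showed the knockouts above all wild types, with 0.99 to 1.29% in wild type at P30. The call was kept without knockout library 10 alone, and without library 12 the difference was 8.56 points (adjusted p = 0.104). A called exon of 111 nt in the ribosomal protein gene Rpl11 was at 100% in the knockouts and at 87.5 and 78.57% in wild type (adjusted p = 0.0398), on 15 and 25 wild-type reads. Ribosomal protein genes have many close copies, the P1 libraries were all at 100%, and the call was made in 0 of the 5 fits with a library left out, so its value is uncertain.

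Inclusion fell in Zdhhc18, which encodes a palmitoyltransferase that attaches lipid to proteins such as Ras. An exon of 103 nt (chr4:133168838-133168940, mm9) was at 89.13, 80.69 and 85.05% in knockout and at 99.51 and 100% in wild type (adjusted p = 0.0109). It was nearly always included in wild type at each age, at 100% in both P1 libraries and at 99.49 to 100% at P30, and only knockout libraries fell below 99%. The P1 knockouts had 78.88, 81.89 and 87.07% (adjusted p = 0.00613). At P10 the call ended without knockout library 11 (−12.7 points, adjusted p = 0.0783) or either wild-type library (adjusted p = 0.075 and 0.0974).

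Rcan3 encodes a protein that regulates the phosphatase calcineurin, and one of its 3′ splice sites showed the largest fall among the calls. It adds 3 nt in the 5′ untranslated region of the annotation, and was used in 15.49, 44.36 and 18.47% of reads in knockout against 80.06 and 89.77% in wild type (adjusted p = 0.0136). Knockout library 11 lay higher than the other knockouts, but below both wild types. At P1 the values were 17.18, 16.73 and 15.5% against 86.02 and 85% (adjusted p = 0.00672), and P30 wild type had 83.17 to 85.4%, so the 7 wild-type libraries spanned 80.06 to 89.77% and the 6 knockouts 15.49 to 44.36%. Without knockout library 12 or either wild-type library the adjusted p was 0.0659, 0.117 and 0.15, with differences from −54.0 to −63.7 points. Rcan3 spliced reads were also lower, at 24.4, 30.2 and 27.7 RPM against 42.5 and 44.4 (−0.65, SE 0.15, adjusted p = 0.23).

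Pole encodes the catalytic subunit of DNA polymerase epsilon, which copies the leading strand in dividing cells. An exon of 86 nt was at 63.64 and 68.18% in the 2 knockout libraries with at least 10 reads and at 100% in both wild types (adjusted p = 0.0138). The knockout values rest on 18 and 37 reads, and the P1 knockouts were far higher, at 90.91, 94.74 and 94.81%. This call was kept in 1 of the 5 fits that left out a library, the one without knockout library 11, which has no value here.

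2 further calls rest on few reads. A 5′ splice site of Kank2, an adaptor protein gene of cell adhesions, was at 100% in the knockouts on 22 to 24 reads and at 84.58% in both wild types on 49 reads each (adjusted p = 0.027), and it was at 100% in every P1 and P30 library. This call was made in 0 of the 5 fits with a library left out, and that of Layn, below, in 2. An intron of Layn, which encodes the hyaluronan receptor layilin, was listed at 57.14 and 53.33% in 2 knockout libraries and at 0% in both wild types (adjusted p = 0.00738). In each of these 2 knockouts 1 raw read crossed an exon-intron junction, since the read numbers of introns in the table are corrected and can exceed the raw reads.

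**Figure D2:**
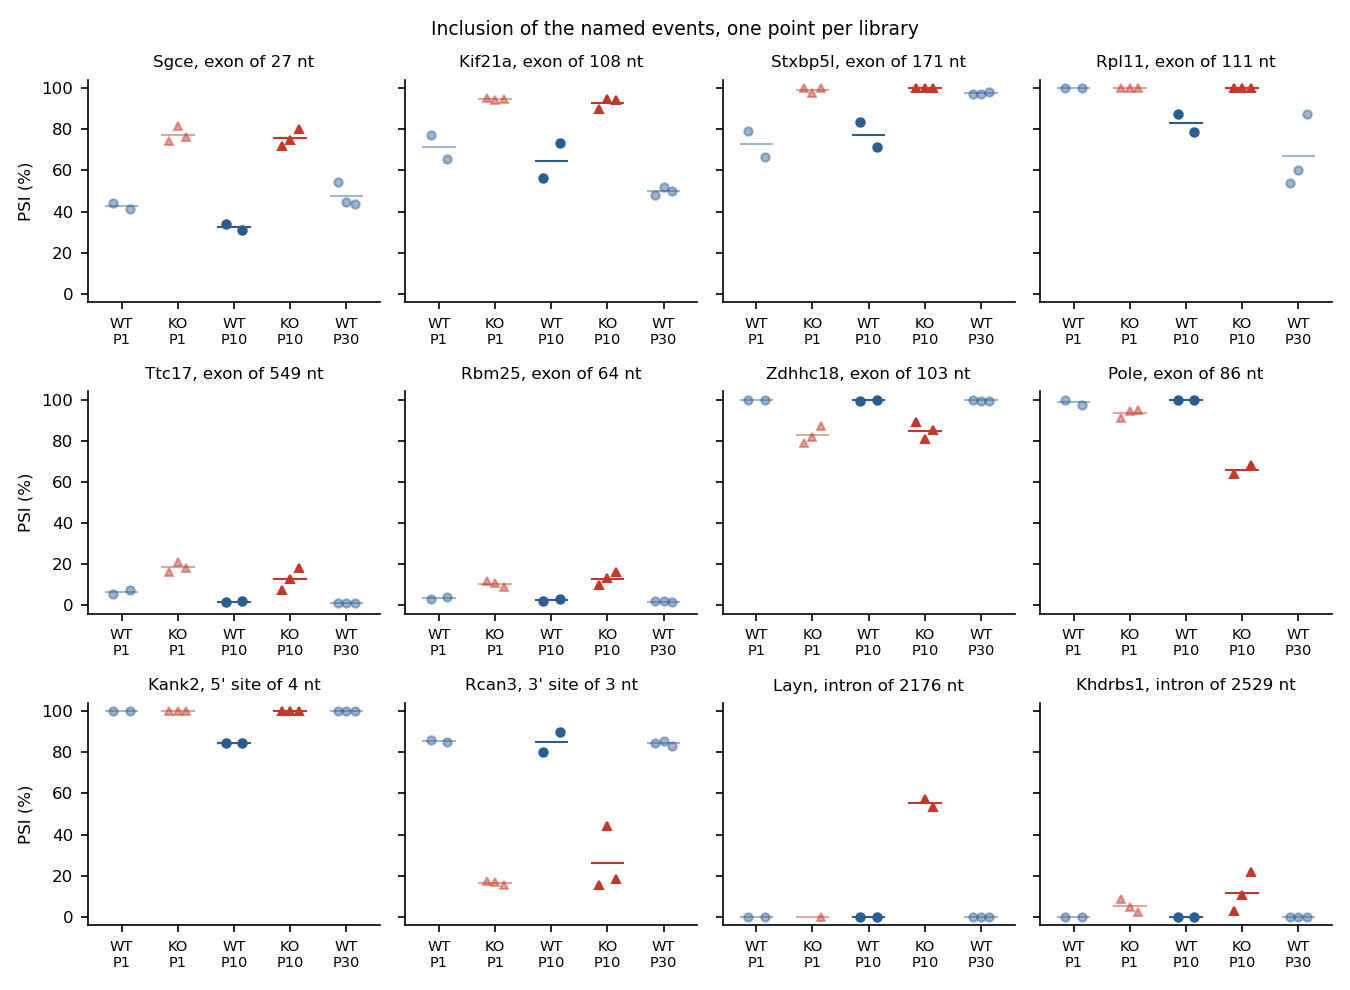
PSI of the 11 called events named in the text and of the Sgce exon, 1 point per library (circles wild type, triangles knockout, P10 in full colour), with a bar for the group mean. The knockout libraries of P1 and P10 sit together on one side of the wild types of these ages in Sgce, Kif21a, Stxbp5l, Zdhhc18 and Rcan3. In Stxbp5l the P30 wild types reach the level of the knockouts. Rpl11 and Kank2 are at 100% in every P1 library.

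Some of the largest shifts missed the adjusted threshold although the groups lay far apart. The 27 nt microexon of Sgce, the gene of epsilon-sarcoglycan, was at 72.08, 74.93 and 80.04% in knockout and at 33.92 and 31.07% in wild type (adjusted p = 0.0515), and at P1 at 74.24, 81.4 and 76.03% against 44.21 and 41.37%. An exon of 192 nt in Epc2, a chromatin regulator of the enhancer of polycomb family, was at 81.25, 87.76 and 93.69% against 37.78 and 45.58% (adjusted p = 0.0797), and at P1 it differed by 35.6 points. An exon of 115 nt in Vps24, a subunit of the ESCRT-III membrane-scission complex, was at 54.46, 69.08 and 51.05% against 16.31 and 20.76% (adjusted p = 0.111), with 27.03 points at P1.
In all 3 exons every knockout library lay above every wild-type library at both ages. Wild type at P30 was near the P10 wild type for Epc2 (37.97 to 45.76%) and Vps24 (15.1 to 28.89%).

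More exons differed in the same direction at P10 and P1, and those in this paragraph were chosen after their values were seen. A 132 nt exon of 1110028C15Rik was at 94.83, 90.43 and 91.52% in knockout and at 52.38 and 46.94% in wild type (adjusted p = 0.133), and it was called at P1, where it differed by 54.8 points (adjusted p = 0.0459). A 60 nt exon of Gpbp1, a transcription factor gene, was at 93.75, 95.16 and 90.02% against 82.77 and 77.44% (adjusted p = 0.133), with 12.8 points at P1. A 135 nt exon of the zinc-finger gene Zfp711 was at 28.5, 30.48 and 39.53% against 9.02 and 10.48% (adjusted p = 0.194), with 27.5 points at P1.
In each of these exons the knockouts were higher and did not overlap wild type at either age. The 120 nt exon of Lrrc7, which encodes the postsynaptic scaffold densin, reached 98.23, 100 and 96.8% against 81.72 and 79.19% (adjusted p = 0.323), and a further Vps24 exon, of 61 nt, was at 51.72, 70.15 and 59.94% against 25.66 and 33.9%. The matched Gpbp1 exon holds neither TAAA nor TTAA and is not shown, and the 1110028C15Rik and Vps24 exons were not matched. The matched Zfp711 and Lrrc7 exons moved at both ages and were picked for holding the motif letters, marked as above. Their motifs are therefore no trait of the exons in this paragraph.
Zfp711 135 nt exon, higher, not called: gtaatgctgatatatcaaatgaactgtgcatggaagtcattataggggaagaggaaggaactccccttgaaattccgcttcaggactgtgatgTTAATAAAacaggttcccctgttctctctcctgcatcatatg
Lrrc7 120 nt exon, higher, not called: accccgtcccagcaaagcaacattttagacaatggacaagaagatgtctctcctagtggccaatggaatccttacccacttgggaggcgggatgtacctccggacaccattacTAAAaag

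Within Kif21a the alternative exons moved in different directions. Against the rise of the 108 nt exon, a 39 nt exon nearer the 5′ end (chr15:90806902-90806940, mm9) was at 21.68, 18.64 and 15.28% in knockout and at 43.01 and 33.57% in wild type (adjusted p = 0.159). A further 39 nt exon downstream (chr15:90779437-90779475, mm9) was at 21.62, 14.32 and 12.71% against 45.06 and 23.6% (limma adjusted p = 1). Both were lower without overlap at P10 and differed by −20.2 and −13.3 points at P1. They are shown beside the 108 nt exon above because they moved the other way, and unlike that exon they hold no TAAA or TTAA. All 3 exons have lengths that are multiples of 3.
Kif21a 39 nt exon nearer the 5′ end, lower, not called: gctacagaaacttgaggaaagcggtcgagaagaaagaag
Kif21a 39 nt exon downstream, lower, not called: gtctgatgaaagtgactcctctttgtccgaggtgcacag
Kif21a spliced reads as a whole overlapped, with 303.7, 269.2 and 318.4 RPM in knockout and 312.4 and 317.2 in wild type.

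Of 16 genes from earlier work on Sam68-dependent RNA processing with a tested event, 7 (43.8%) held an event of at least 10 points without overlap, and 18% of all 10027 genes did. The list was drawn up with results of these data known and its genes held 96 tested events against 40658 in all, so nothing is read from the share. Besides Sgce, a 12516 nt intron entry of Nrxn2, a presynaptic neurexin, was at 50.86, 41.11 and 40.52% in knockout and at 63.29 and 51.72% in wild type (adjusted p = 1), where nearly all raw intron reads came from 1 end of the intron. The groups did not overlap, but knockout library 10 and wild-type library 6 were close.
An intron of the growth kinase gene Mtor was at 18.18, 17.39 and 19.15% against 39.39 and 37.7% (adjusted p = 1), with 23 to 42 reads per library, and the P1 groups overlapped. An 18 nt microexon of Clasp2, which binds growing microtubule ends, was at 90.85, 88.39 and 89.09% against 79.86 and 80.02% (adjusted p = 1), and overlapped at P1 too. A 5′ site of Ktn1, the kinesin receptor kinectin, was at 64.56, 36.17 and 25.76% against 19.54 and 0%, on 11 to 23 reads, with a difference of −20.5 points at P1.

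Most of the other events named from that list overlapped between the groups. In Nrxn3, an exon of 27 nt was at 67.57, 51.44 and 47.92% against 40.25 and 48.39%. The exon of 66 nt in Kifap3, the kinesin-2 adaptor, was at 35.05, 34.66 and 25.28% against 42.9 and 29.03%, the exon of 187 nt in Srsf1, a splicing factor, at 95.87, 96.59 and 81.16% against 96.71 and 95.44%, and the 5′ site of Bcl2l1, an apoptosis regulator whose isoforms Sam68 is known to set, at 89.81, 88.74 and 85.82% against 80.75 and 89.22%.
The groups overlapped in these 4 events. A 3′ site of Ccnd1, a cyclin gene, was at 13.33, 3.85 and 1.43% against 11.46 and 11.81%, and overlapped as well. The intron of Aldh1a3 did not overlap, at 54.55, 70.59 and 60% against 78.38 and 78.79% (adjusted p = 1), with all its raw intron reads at 1 end.

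Over all events tested, 1038 (2.55%) were at least 10 points higher without overlap between the groups and 1307 (3.21%) at least 10 points lower. Counts by class on this measure were as follows. Among frame-preserving exons of 28 to 300 nt, 170 were higher and 125 lower of 4538, and among frame-shifting exons 237 were higher and 152 lower of 5955. Among introns over 500 nt, 310 were higher and 591 lower of 15655, and among shorter introns 123 and 239 of 7591. Microexons of at most 27 nt were nearly balanced, with 16 higher and 13 lower of 527, and exons over 300 nt had 14 higher and 25 lower of 467.
Without the condition on overlap, 280 frame-preserving exons were at least 10 points higher and 271 lower, 411 and 375 frame-shifting exons, and 655 and 993 introns over 500 nt. The median difference over each of these classes was small, from −1.22 points in exons over 300 nt to 0.017 points in short introns.

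Uncalled introns with at least 20 reads in all 5 P10 libraries and no overlap between the groups are given next, from those with the largest differences among such events. An intron of Zkscan2, a zinc-finger gene, was at 77.78, 66.04 and 38.71% in knockout and at 19.05 and 12.2% in wild type (adjusted p = 0.369), and at P1 at 67.9, 58.02 and 65.38% against 11.11 and 11.43%. An intron of March7, a ubiquitin ligase gene, was at 20.36, 10.71 and 15.53% against 53.57 and 45.17% (adjusted p = 0.579), but at P1 the groups overlapped. An intron of Zfp711 just before its 135 nt exon was at 32, 32.31 and 14.06% against 71.43 and 52.94%, and an intron of Gss, a glutathione synthesis gene, at 16.2, 15.88 and 40.26% against 66.19 and 45.41% (adjusted p = 1 for both).
The Zkscan2 and Zfp711 introns differed in the same direction at P1 without overlap, by 52.5 and −12.8 points.

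The P1 libraries, none of which is shared with P10, offered a second measure of the same events. Of the 2345 events with at least 10 points and no overlap at P10, 1912 had values at P1 whose group means differed. Of these, 1201 (62.8%) had the same sign there, and the share over all tested events is not given here. At P1, 256 differed by at least 10 points without overlap in the same direction and 59 in the opposite direction. The share with the same sign was 68.6% of 668 exons, 60.7% of 984 introns and 56.2% of 260 alternative splice sites. For exons higher in the P10 knockout it was 70.8% of 401, with 99 of at least 10 points without overlap in the same direction and 11 in the opposite one. Of the 13 called events, 10 had P1 values whose group means differed, all of the same sign. Rpl11 and Kank2 also had P1 values, but without a difference between the groups. The knockout effect at P10 was not called as different from that at P1 in any of 37466 events tested with limma, with 915 at an unadjusted p below 0.05.

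**Figure D3:**
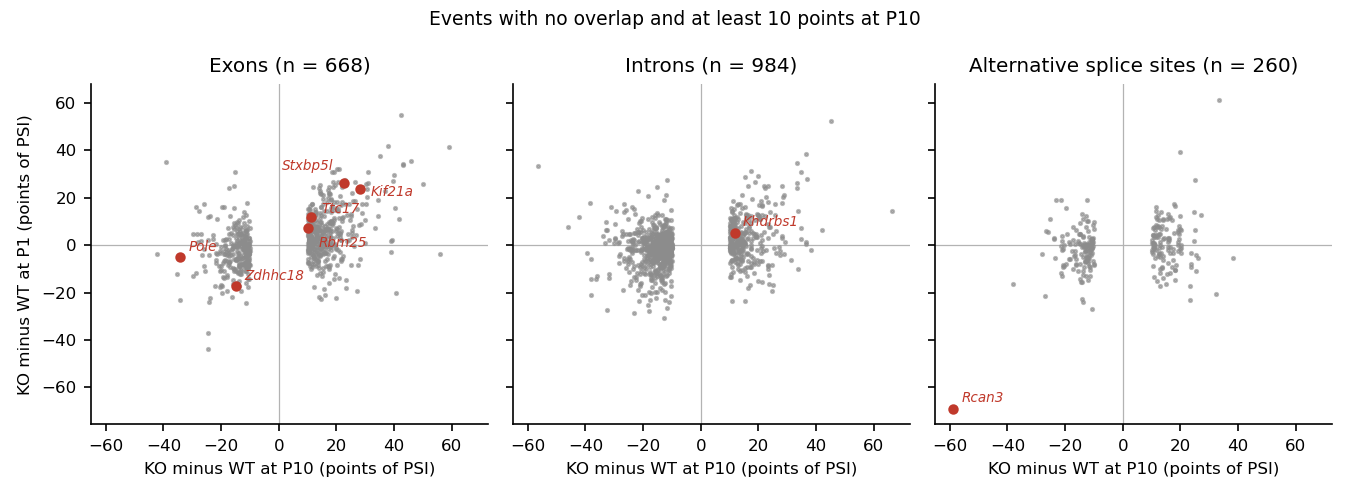
Each point is an event with at least 10 points of PSI and no overlap between knockout (KO) and wild type (WT) at P10, placed by its difference at P10 (x axis) and at P1 (y axis), both in points of PSI. Called events named in the text are in red with their gene. Of 668 exons 68.6% have the same sign at both ages, of 984 introns 60.7% and of 260 splice sites 56.2%.

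The same events were set against normal maturation, as wild type at P30 minus wild type at P1. Of 1754 events with values that differed between these ages, 666 (38%) shifted in the same direction in the P10 knockout and in maturation. The share was 43.5% for exons, with 48.6% of those higher in the knockout and 36% of those lower. For introns it was 32.7%, with 40.1% and 29.1% in the same order. No share over all tested events is given beside these, so they are not read as a movement against maturation. Among the called events 4 of 9 agreed in sign. Stxbp5l was one that moved as in maturation, and Kif21a, Rbm25 and Ttc17 moved against it.

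The Sam68 motif letters were counted within exons. Of 11487 tested exons 7993 (69.6%) could be matched to GENCODE M21, and TAAA or TTAA (transcribed strand, with overlapping copies both counted) occurred in 36.2% of them, at 0.521 copies per 100 nt. Among the 285 matched exons at least 10 points higher without overlap, 47.4% held a motif, at 0.908 per 100 nt, and their median A and T content was 54.1%, against 49.8% for all. Among the 214 lower exons 31.8% held one, at 0.343 per 100 nt, with 47.1% A and T. The 62 exons that were higher at both ages held 1.1 copies per 100 nt and the 24 lower at both ages 0.37. These are descriptions of exon letters that move with base composition, whose part was not tested, and the flanking introns were not analysed here.

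The calls were also placed by their distance from Khdrbs1. Within 10 Mb of the gene on chromosome 4, other genes held 685 tested events (1.68% of all), of which 3 were called (0.438%), against 0 of 1972 on the rest of chromosome 4 and 9 of 38003 (0.0237%) on other chromosomes. The 3 calls were Zdhhc18, Rcan3 and Rpl11, at 3.75, 5.56 and 6.19 Mb from Khdrbs1. Events of at least 10 points without overlap made up 9.2%, 5.88% and 5.7% of those tested in the 3 regions. Of 51 such events within 10 Mb, where Khdrbs1 itself was not left out, 76.5% had the same sign at P1, against 62.4% of 1861 elsewhere.

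Gene expression was divided in the same way. An unadjusted p below 0.05 on the cRPKM scale was reached by 10.1% of 238 genes within 10 Mb, 4.13% of 605 on the rest of chromosome 4 and 5.11% of 12399 on other chromosomes. By spliced reads, a difference of at least 1.5-fold was seen in 8.08% of 198, 4.97% of 523 and 4.11% of 10451 genes, and an unadjusted p below 0.05 in 20.7%, 16.4% and 15.2%. Groups without overlap made up 29.3%, 31.5% and 27.7% by spliced reads, so on that measure the genes near Khdrbs1 lay below the rest of the chromosome. Of the neighbours the text names, chosen after their values were seen, Hpca, the gene of the calcium sensor hippocalcin 0.588 Mb away, had 105.5, 133.3 and 109.5 spliced RPM in knockout and 60.5 and 65.6 in wild type (0.86, adjusted p = 0.23). Kpna6, an importin gene 0.037 Mb away, had 75.2, 51.6 and 67.0 against 114.2 and 90.1 (−0.66, adjusted p = 0.23).
The direction thus differed between neighbours. The labels give the background strain but not the origin of the allele or the number of backcrosses, and the part of sequence linked to the targeted allele was not tested.

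Hdac1, a histone deacetylase gene 0.167 Mb from Khdrbs1, was named after its values were seen, because it was the only one of 10023 genes (0.00998%) called by junction reads of exon events. On that scale it had 11.3, 11.8 and 8.98 RPM in knockout and 35.4 and 37.3 in wild type (−1.68, SE 0.19, adjusted p = 0.00115). Its spliced reads at the single listed intron overlapped, with 18.7, 17.4 and 12.8 RPM against 15.3 and 15.7, so the scales disagreed and no change of the gene as a whole is reported.

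**Figure D4:**
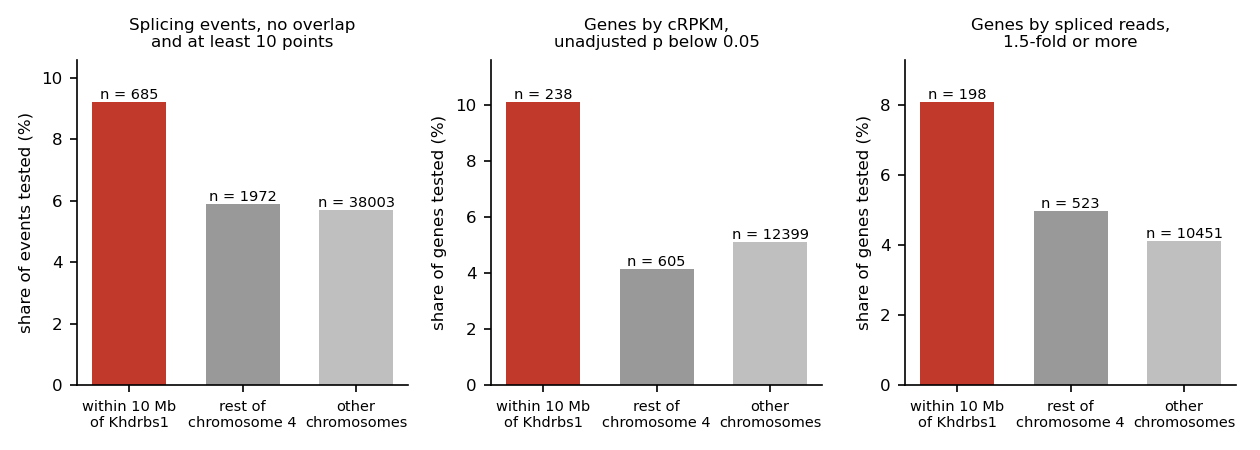
Share of events or genes that differ between knockout and wild type at P10, for other genes within 10 Mb of Khdrbs1, the rest of chromosome 4 and the other chromosomes, with the number tested above each bar. The bars within 10 Mb stand at 9.2% of events (at least 10 points, no overlap), 10.1% of genes by cRPKM (unadjusted p below 0.05) and 8.08% of genes by spliced reads (at least 1.5-fold). The criterion differs between panels, and the share of genes without overlap by spliced reads, which is not drawn, was 29.3% there and 31.5% on the rest of chromosome 4.

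To ask which genes change in abundance, the gene lists were read on both scales. On the cRPKM scale 748 of 14063 genes had an unadjusted p below 0.05 and the next adjusted p after Khdrbs1 was 0.884. Knockout libraries lay all above wild type in 8.59% of genes and all below in 10.4%, and by spliced reads in 15.4% and 12.5%. Many of the largest cRPKM differences belong to genes listed at 0 in a shallow library. Plp2 and Tufm, for example, were listed at 0 in knockout libraries 11 and 12, where 1 read on a transcript of 2 kb was worth 1.21 and 1.67 cRPKM. A read is worth more on a shorter transcript, and the lengths of Plp2 and Tufm are not given here.

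Long transcripts had fewer reads in 2 of the knockout libraries, which bears on each list below. By spliced reads the median difference between knockout and wild type was 0.21 (log2) for 1588 genes whose longest transcript is under 2 kb and −0.36 for 772 genes over 8 kb, with 0.08, −0.07 and −0.21 in the classes between. At P1 the same medians ran from 0.01 to 0.06. Among the libraries, the mean log2 level of the over 8 kb class minus that of the under 2 kb class was 0.479 in knockout library 10 and 0.065 in library 11, and 1.02 in library 12, 1.165 in wild-type library 5 and 1.029 in library 6. Library 12 thus resembled wild type, while 10 and 11 had less of the long transcripts, and the part of this in the list medians was not tested.

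Genes of voltage-gated channels, which shape the firing of cerebellar neurons, were lower in the knockout by spliced reads. Of 29 measured, 12 (41.4%) lay below wild type without overlap and 0 above, against 12.5% and 15.4% of all genes. Their median was −0.39 log2 against 0.0118 for all genes, and 0 were called. Their longest transcripts have a median of 8383 nt. The median difference from wild type was −0.38 in library 10, −0.58 in library 11 and −0.26 in library 12, and the median relative to genes of the same length class was −0.15. Cacnb4, the calcium channel β4 subunit gene, had 81.4, 62.3 and 91.2 spliced RPM against 128.3 and 122.4 (−0.69, SE 0.15, adjusted p = 0.23). Kcna2, a potassium channel gene of axons and basket cell terminals, had 3.56, 2.09 and 7.12 against 9.56 and 7.03, where library 12 fell between the wild types. On the cRPKM scale, Kcna2 had 11.52, 4.85 and 15.54 against 24.02 and 23.09.

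Glutamate receptors and scaffolds also had a median below 0. Of 29 measured, 10 (34.5%) were below wild type without overlap and 1 (3.45%) above, against 12.5% and 15.4% of all genes. The median was −0.27 (−0.16 relative to genes of their length), and 0 were called. Dlg2, the postsynaptic scaffold PSD-93, had 200.3, 150.3 and 259.7 spliced RPM against 296.5 and 278.6 (−0.53, SE 0.17, adjusted p = 0.234). All 3 knockouts lay below both wild types, with library 12 nearest to them.
At P1 the difference was 0.10 for Dlg2. By cRPKM the lists had medians of −0.38 for glutamate receptors and scaffolds and −0.29 for voltage-gated channels, with all genes at −0.03.

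Other lists of neuronal gene functions also had medians below 0 by spliced reads. Neuronal splicing regulators had −0.21 with 2 above and 8 below of 26, cytoskeleton and motor genes −0.21 with 1 and 3 of 20, neurexins and their ligands −0.17 with 1 and 3 of 20, GABA and glycine receptors −0.15 with 1 and 4 of 21, and presynaptic genes −0.14 with 2 and 4 of 31. Over all genes 15.4% lay above and 12.5% below, and relative to genes of their length the medians of these 5 lists were −0.10, −0.03, −0.03, −0.07 and 0.03 in the same order. None of their members was called. Syn3, a synapsin gene of synaptic vesicles, had 29.96, 21.14 and 40.27 spliced RPM against 50.15 and 44.05 (−0.66, SE 0.21, adjusted p = 0.234), and Kif1b, a kinesin of axonal transport, had 800.5, 601.7 and 941.5 against 1308 and 1021 (−0.59, SE 0.17, adjusted p = 0.23).
Library 12 was the knockout nearest to wild type for Syn3 and Kif1b. Stmn1, the gene of the microtubule regulator stathmin on the same part of chromosome 4 as Khdrbs1 (4.605 Mb away), was instead higher, with 254.3, 247.4 and 298.7 against 172.2 and 193.9 (0.54, SE 0.13, adjusted p = 0.23), and its difference by junction reads of exon events was −0.43.

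Of 24 neurexins and ligands measured on the cRPKM scale, 2 lay above wild type without overlap, 4 below, and 0 were called. Over all genes on that scale 8.59% lay above and 10.4% below, and nothing is read from the counts of this list. Lrrtm2, a postsynaptic neurexin ligand, had 12.85, 10.5 and 10.61 cRPKM in knockout and 17.09 and 18.39 in wild type (−0.61, SE 0.22, adjusted p = 0.884). Nxph3, a neurexophilin, had 4.63, 9.2 and 6.46 against 2.75 and 2.6 (1.04, SE 0.34, adjusted p = 0.884). Nrxn3 itself had 13.94, 10.8 and 10.83 against 19.7 and 16.62 (−0.58, SE 0.23, adjusted p = 0.884), and its spliced reads were 70.3, 63.6 and 81.3 RPM against 114.3 and 82.2. In these 3 genes the groups did not overlap, and none was called.

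Marker lists of choroid plexus, a tissue attached to the cerebellum, and of microglia had medians over 0 by spliced reads, beside the neuronal lists described before. Of 10 choroid plexus genes measured by spliced reads, 7 lay above wild type without overlap and 0 below, against 15.4% and 12.5% of all genes. Their median was 1.03 (0.98 relative to genes of their length). However, 0 of them had an unadjusted limma p below 0.05, against 1717 of all 11173 genes. Their summed level was 725 to 1823 RPM in knockout and 638.3 and 29.9 in wild type. Ttr, the thyroid hormone carrier that dominates choroid plexus RNA, had 1730, 1078 and 664.5 against 581.3 and 2.79, so wild-type library 5 was close to knockout library 12 and library 6 stood far below both. It also ranged from 5.06 to 2722 among the P30 wild types.
Of 16 microglia and macrophage genes, 7 were above and 1 below, with a median of 0.34. Their longest transcripts have a median of 2124 nt, and relative to genes of the same length class the median was 0.16. Summed levels were 515.1 to 656.5 RPM in knockout against 437.3 and 504.9. Ly86 had 16.8, 21.1 and 23.1 against 7.55 and 13.2 (0.94, SE 0.26, adjusted p = 0.23), and C1qa, a complement gene, had 19.4, 22.3 and 22.1 against 13.1 and 14.2. Cx3cr1, a defining microglial receptor, had 20.23, 21.33 and 19.65 against 22.84 and 24.5 and was thus below wild type. C1qa and Cx3cr1 are named outside the rule of smallest p. Mrc1, which that rule names, was lower by cRPKM, at 2.39, 0.44 and 1.87 against 4.26 and 3.25. None of these markers was called, and the part of such tissue in the other results was not tested.

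**Figure D5:**
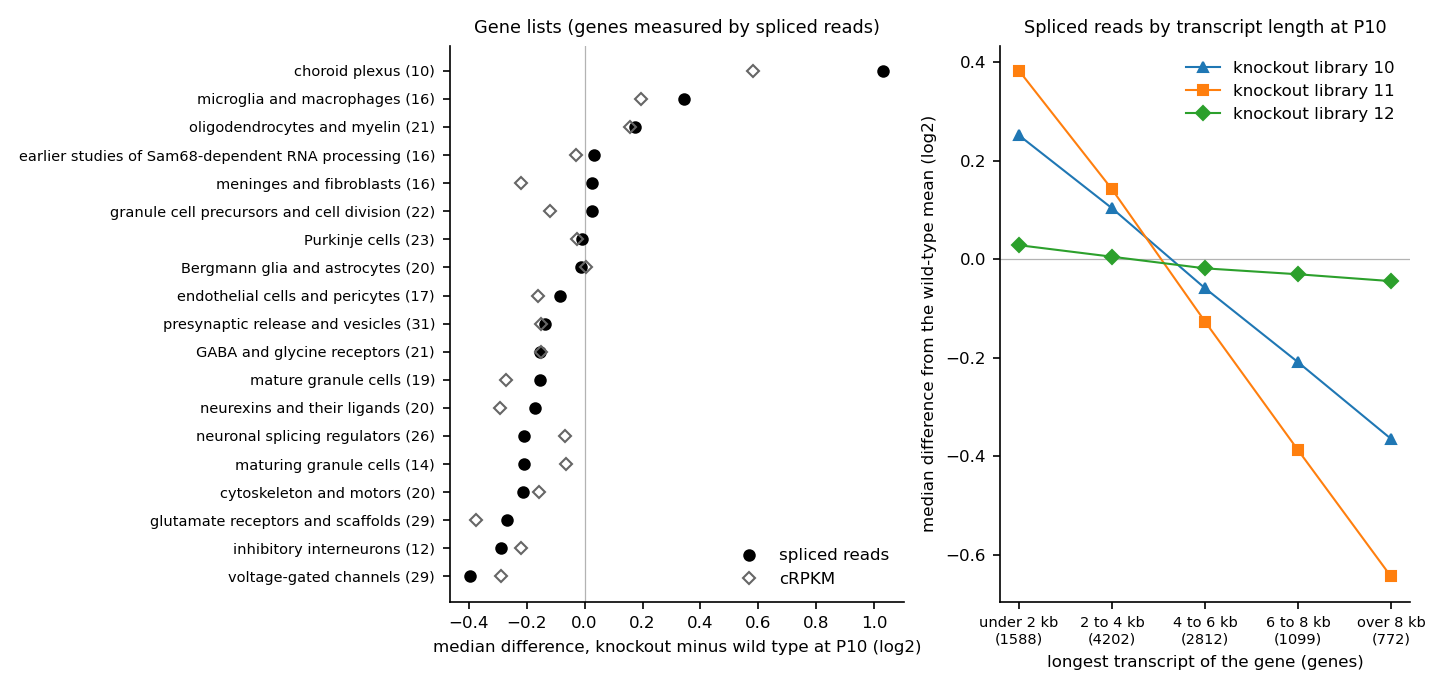
Left, median log2 difference between knockout and wild type at P10 of each gene list with at least 10 genes, by spliced reads (filled circles) and cRPKM (open diamonds), from choroid plexus (1.03 by spliced reads) to voltage-gated channels (−0.39). Right, the median log2 difference of each knockout library from the wild-type mean by the length of the longest transcript, which falls from 0.25 to −0.36 in library 10 and from 0.38 to −0.64 in library 11, and from 0.03 to −0.04 in library 12.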

How the data were processed

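RNA-seq of mouse cerebellum was read from 2 tables for 13 libraries, made from total RNA with a modified Illumina TruSeq Stranded mRNA protocol, per the labels' protocols. The submitters' processing notes name FastQC, Trimmomatic and mm9. The aligner is not given in the sources used here, nor is the counting tool. Deposited inclusion levels are percent spliced in (PSI, 0 to 100%) with read numbers beside each value, per the file headers. Deposited expression values are cRPKM, a form of RPKM, as the authors named that table. The reads behind them were estimated from what 1 read is worth among the lowest values.

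Values with under 10 reads were dropped, as were 30610 alternative site entries without added sequence, which left 253155 events. 1 limma model held all 5 groups and 13 libraries (8 residual degrees of freedom), so the libraries of other ages inform the spread. Genes that averaged 1 cRPKM or more in any group were tested as log2(cRPKM + 1). Events with values in at least 2 libraries of each P10 group and a mean PSI of 5 to 95% were tested as log2 odds, with 0.5 reads added to each side. P-values were two-sided and adjusted by the Benjamini-Hochberg method over all features tested. A gene was called at an adjusted p below 0.05, an event also at 10 points of PSI. Spliced reads and junction reads were tested by the same limma model. Of 585590 intron values at P10 kept by their corrected reads, 1821 had under 10 raw reads. The scripts were tested on simulated data.

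The text names called genes and events, up to 3 members of each of 25 gene lists by smallest p, and for each gene of the earlier studies its event with the smallest p. It also names, where a result turns on them, genes among the 8 largest cRPKM differences and events among the 5 largest uncalled ones in each direction with at least 20 reads in all 5 P10 libraries, in both cases without overlap between groups. Predicted genes (Gm and Rik names) were left out of this event ranking. The members and lists were chosen with earlier results of these data known. Of the called events, 2 are not reported here. Alternatives changed the pseudocount, filters, read minimum, scale, weights, normalization and libraries. Raw intron reads, spliced reads, libraries with over 1 M estimated reads and knockout library 12 alone were added after seeing the data. Library numbers are all distinct and pair no samples. Exon sequences come from GENCODE release 21 (M21, GRCm38), while event coordinates are those of the deposited table. Software was R 4.3.3, limma 3.58.1, version 1.17.8 of the data.table package, Python 3.11.15, pandas 2.3.3, numpy 2.4.6 and matplotlib 3.10.9.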

Additional observations from a re-analysis of the deposited data

Results flagged for a closer look

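For 2 genes the knockout effect on the cRPKM scale was called as different between P10 and P1 by the interaction term of the limma model. For Hist1h2ag, a replication-dependent histone gene, the effect at P10 minus that at P1 was 3.68 on the log2 scale (adjusted p = 0.0134), and for Gm10479 it was 5.66 (adjusted p = 0.00853). Both genes were listed at 0 in every P10 library, so the difference rests on P1, where Hist1h2ag had 10.03 and 13.92 cRPKM in wild type, Gm10479 had 29.6 and 82.2, and all 3 knockout libraries were listed at 0. The cRPKM values of P1 knockout libraries 13, 14 and 15 rest on an estimated 0.343, 1.43 and 0.0944 M reads. There 1 read on a transcript of 2 kb was worth 1.46, 0.35 and 5.3 cRPKM. Library 14, the deepest of the 3, was also at 0. A read is worth more on a shorter transcript, and the lengths of these 2 transcripts are not given here. The weight of the zeros was therefore not tested, and no effect that depends on age is read from these 2 genes.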

How the results depend on the processing

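Khdrbs1 was called under each of the 14 alternatives run for it, with differences from −3.13 to −4.72. The count of called genes, 1, became 3 with no low-value filter, 3 with only the P10 libraries, 3 by spliced reads, 16 with only P10 libraries with over 1 M estimated reads and 50 with only knockout library 12, and 1 to 27 with 1 P10 library left out (8 without wild-type library 5, 27 without library 6). The 2 genes whose effect differed between ages became 2 to 9. The 13 called events became 0 with only the P10 libraries, 3 with no mean PSI filter and 6 at 20 points of PSI, and 0 to 15 with 1 library left out (0 without wild-type library 5). With PSI in points there were 19 calls, 5 of them shared, and with read-based weights 11, 5 shared. Events that differed between ages were 0 to 2 with a library left out. Of the named results, 680 values kept direction and call, 17 passed only under the alternative, 73 lost the call and 4 changed sign: Stmn1 was −0.43 by junction reads of exon events and Qk 0.36 with only knockout library 12, while leaving out a wild-type library gave −1.10 to 7.37 points for Bcl2l1 and −11.2 to 2.63 points for Kifap3. The cause was not tested. Where an arm keeps 1 library, it is assumed to vary like the other groups. No paired analysis was possible because the library numbers of the groups are all distinct. The depth of the cRPKM values limits what that scale can show, as do the few reads behind some called events.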

Other observations

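Oligodendrocyte and myelin genes differed between the knockout libraries by spliced reads. Of 21 measured, 4 (19%) lay above wild type without overlap and 1 (4.76%) below, against 15.4% and 12.5% of all genes. Their median was 0.17 (0.09 relative to genes of their length), and 0 were called. The median difference from wild type was 0.41 in knockout library 10, 0.41 in library 11 and −0.26 in library 12. Mbp, which encodes myelin basic protein, had 2543, 3443 and 1572 spliced RPM in knockout and 1486 and 1555 in wild type, and Bcas1, a gene of newly formed oligodendrocytes, had 268, 301 and 219 against 202 and 189.

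Over all genes by spliced reads, 15.4% lay above wild type without overlap and 12.5% below. Granule cell precursor and cell division genes had a median of 0.02 with 3 above and 2 below of 22. Purkinje cell genes had −0.01 with 2 and 3 of 23, and Bergmann glia and astrocyte genes −0.01 with 2 and 2 of 20. Relative to genes of their length the medians were −0.04, −0.05 and 0.02 in the same order. Maturing granule cell genes had −0.21 with 1 and 3 of 14 (−0.07 relative to genes of their length). Mature granule cell genes had −0.15 with 0 and 2 of 19 (−0.14 relative to length). Inhibitory interneuron genes had −0.29 with 0 and 4 of 12 (−0.28 relative to length), and −0.29, −0.39 and −0.13 in knockout libraries 10, 11 and 12. Endothelial and pericyte genes had −0.08 with 3 and 3 of 17 (−0.165 relative to length). Meningeal genes had 0.03 with 2 and 0 of 16 (0.06 relative to length), and midbrain and caudal hindbrain genes −0.02 with 1 and 0 of 7 (−0.10). No member of these lists was called with limma, while 1717 of all 11173 genes had an unadjusted p below 0.05.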
